A study of Mus musculus with 24 samples.

Results

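The data described here are the messenger RNA levels of the hippocampus of 3.5-month-old BALB/c mice that had lived with a running wheel (adult exercise, 6 mice), set against mice of the same age and strain housed without one (adult sedentary, 6 mice). These 12 of the 20 mice of the study were chosen by their labels alone, and they were measured on 14 of its 24 arrays. All 12 were males of an inbred albino strain, were housed 1 to a cage for 8 weeks, with or without the wheel. The sedentary cages were standard shoebox cages, smaller than the wheel cages, and had no locked wheel, so cage and wheel cannot be told apart. The whole hippocampus was taken in the early afternoon after decapitation, and its RNA was hybridized to Illumina MouseWG-6 v2 arrays, on which each probe reads part of a transcript. Mouse 13 of the exercise group and mouse 6 of the sedentary group were each hybridized to a second array, which was averaged with the first. The other 8 mice of the study, 4 aged exercise and 4 aged sedentary mice of 18 months on the same housing schedule, served to estimate the spread and to compare the ages. The description covers the 19806 of 45281 probes that were detected (detection p under 0.01) on the first arrays of at least 4 of the 20 mice, and these name 10814 genes.

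The hippocampus is a cortical region needed for spatial and episodic memory, in which the pyramidal neurons of areas CA1 to CA3 and the granule neurons of the dentate gyrus use glutamate. Wheel running is a voluntary exercise that in rodents is known to raise the birth of granule neurons and the level of brain-derived neurotrophic factor in this region. Immediate early genes, among them Fos, Arc and Dusp1, are transcribed within minutes of strong neuronal firing and their RNAs decay quickly, so that their level at dissection reads recent activity.

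Depth on these arrays is a matter of signal and of the number of mice, since no reads are counted. The first arrays had median signals of 109 to 130.8 in adult exercise mice and 117.3 to 135.8 in adult sedentary mice, and 17773 to 18970 probes were detected in exercise mice and 17607 to 19380 in sedentary mice. Repeat arrays correlated with the first at r = 0.9918 (mouse 13) and 0.9925 (mouse 6) across probes. Markers of the labelled tissue were present: 7 of the 8 CA1 markers and 12 of the 14 dentate granule neuron markers with a kept probe were detected in all 12 adult mice. Choroid plexus RNA, from the secretory tissue that lies against the hippocampus in the ventricle, varied widely. The mean level of 15 choroid plexus markers was 5.96 to 6.14 (log2) in exercise mice 12, 15 and 22, against 7.70 to 9.64 in the other 9 adult mice, and calls that were lost without these 3 runners are given with that value below. A fit without them has fewer runners, so a call can be lost there while the difference stays. In whole tissue, fewer cells of a type and less RNA per cell cannot be told apart.

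A probe is called here at an unadjusted p under 0.005 in limma's moderated test, and differences are log2 values, exercise minus sedentary, where 1 is a doubling. Of the 19806 probes 221 were called (1.12%), 137 higher (0.692%) and 84 lower (0.424%) in exercise mice, where 99.03 would be called by chance alone. Adjusted p-values given with a gene are limma's, over all probes. The called probes name 175 genes, 110 of them higher and 65 lower, and 30 called probes have no gene name. Read at the brightest probe, 130 of the 10814 genes were called (1.2%), 78 higher (0.721%) and 52 lower (0.481%). These are the shares to set beside the called members of each list below. After Benjamini-Hochberg adjustment over all probes 0 passed 0.05 in this limma fit, the smallest adjusted p being 0.0574 for 6 probes, while 1581 (7.98%) passed an unadjusted 0.05. A fit to the 12 adult mice alone called 235 probes, 8 of them at an adjusted p under 0.05: those of Echdc2, Klhl40, Tmem114, Tesc, Slc23a3, Nbl1 and Gm14685, and 1 without a name. Array weights, which let the arrays differ in quality, gave 708 calls, 57 of them at an adjusted p under 0.05. Differences were above 0 in 50.7% and below 0 in 49.3% of all probes, and above 0 in 49.6% and below 0 in 50.4% of all genes. The median difference over all probes was 0.00186, the quartiles were -0.075 and 0.079, and the median size of a called difference was 0.339. In 64 of the 221 called probes the 6 exercise mice and the 6 sedentary mice did not overlap, which 73 of all probes did with exercise higher (0.369%) and 49 with exercise lower (0.247%). The number of calls hung on single mice: it was 147 without exercise mouse 5 and 143 without sedentary mouse 6. The 221 called differences kept their sign with any 1 adult mouse left out. They were chosen on these same mice, so neither the kept signs nor the calls kept in such fits below are support.

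**Figure D1:**
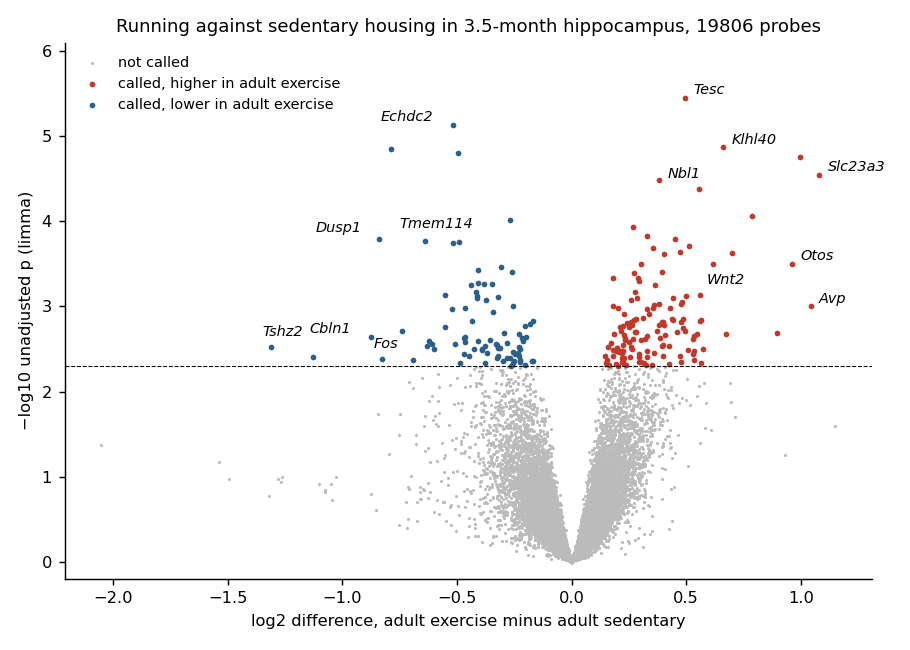
Each point is 1 of the 19806 kept probes, with the log2 difference between adult exercise and adult sedentary mice (6 each) on the horizontal axis and the −log10 of limma's unadjusted p on the vertical axis. The dashed line is the threshold of 0.005, above which 137 probes were higher (red) and 84 lower (blue) in exercise mice, with Tesc, Echdc2 and Klhl40 among the smallest p-values and the uncalled choroid plexus transcripts far to the left.

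Brain-derived neurotrophic factor, a secreted survival and plasticity factor, rose in runners. The Bdnf probe with the brightest signal read 10.04, 10.21 and 10.55 (lowest, median and highest) in the 6 exercise mice and 9.57, 9.78 and 9.91 in the 6 sedentary mice. Every runner lay above every sedentary mouse. The difference was 0.47 ± 0.11 (standard error, SE), a 1.39-fold higher level, with adjusted p = 0.208 in limma. It was called with any 1 adult mouse left out (0.41 to 0.51) and without exercise mice 12, 15 and 22 (0.52). All 6 kept Bdnf probes were positive, at 0.25 to 0.53, and 3 of them were called. The 5 other probes were dimmer, with means of 5.88 to 6.71 in exercise mice and 5.35 to 6.41 in sedentary mice, and the mean over all 6 probes was 0.39, which is not a call. The called probe at 0.53 was detected in 4 of the 12 adult mice, with sedentary mice at 5.23 to 5.50, so the size of its difference is uncertain. The Bdnf receptor genes lay near 0: Ntrk2, which encodes TrkB, differed by 0.01 and Ngfr, which encodes the p75 receptor, by -0.03. Of 28 measured neurotrophin and growth factor genes 1 was called higher and 1 lower (background 1.2% of the 10814 genes, 0.721% higher and 0.481% lower), with a median of -0.03 against -0.00117 over all genes. The other was Igfbp5, which encodes a binding protein of insulin-like growth factors and fell at each of its 3 probes (-0.38 to -0.50). Its brightest probe read 11.90, 11.95 and 12.07 in exercise mice and 11.82, 12.45 and 12.61 in sedentary mice. The lowest of all was sedentary mouse 8, and the other 5 sedentary mice lay above all runners. At another Igfbp5 probe the groups did not overlap, with adjusted p = 0.0574. Without exercise mice 12, 15 and 22 the brightest probe gave -0.38, which is not a call.

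**Figure D2:**
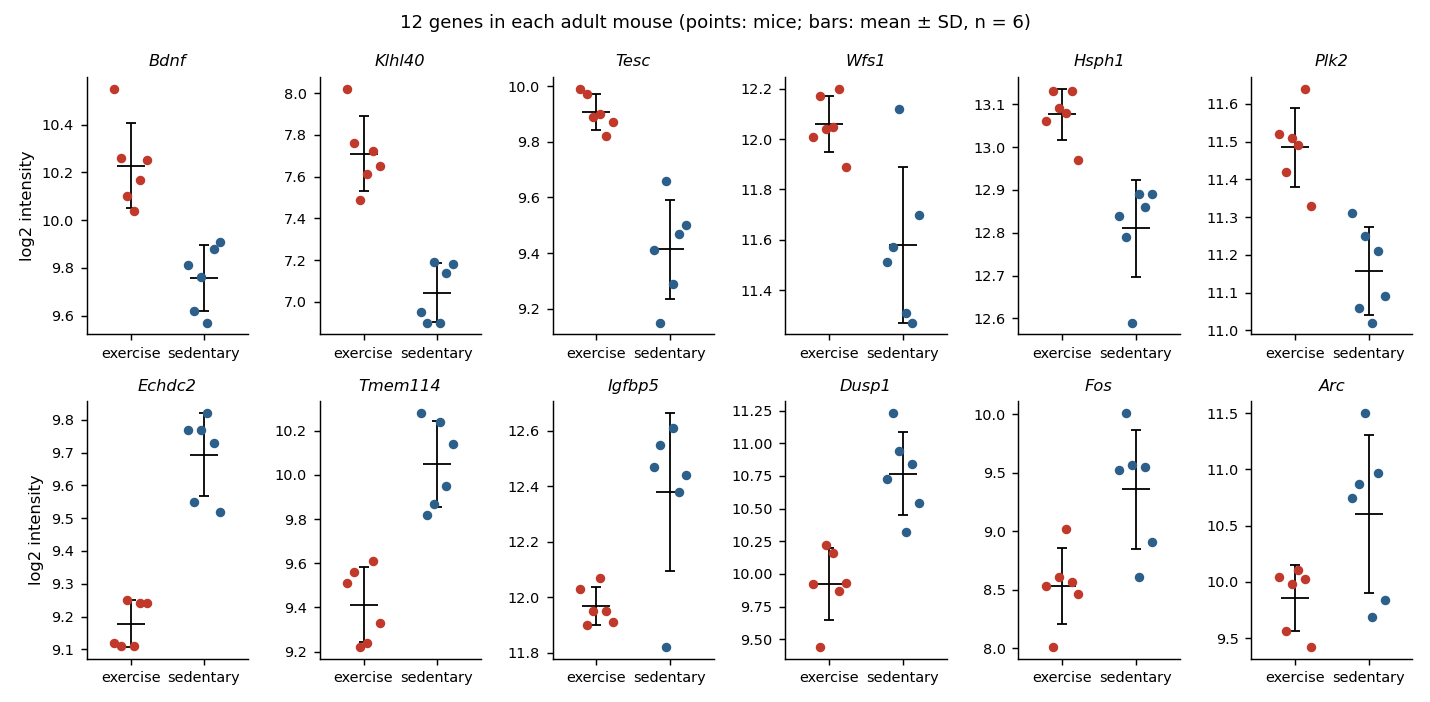
Log2 intensity of the brightest probe of 12 genes in each adult mouse, exercise mice left and sedentary mice right, with mean ± SD (n = 6 each). The exercise mice lie wholly above the sedentary mice for Bdnf, Klhl40, Tesc, Hsph1 and Plk2 and wholly below them for Echdc2, Tmem114 and Dusp1, while sedentary mouse 8 lies below the runners for Igfbp5 and 2 sedentary mice lie among the runners for Arc.

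Sorcs3, which encodes a sorting receptor of the sortilin family, was called at each of its 3 probes (0.27 to 0.30). Its brightest probe read 10.17, 10.20 and 10.38 in exercise mice and 9.82, 9.97 and 10.23 in sedentary mice, so that 2 runners lay above all sedentary mice. That probe lost its call without exercise mouse 13 or 22 or sedentary mouse 4, 14 or 21 (between 0.23 and 0.32 with 1 adult mouse left out), and without exercise mice 12, 15 and 22 (0.27). Klk8, the extracellular protease neuropsin, which is abundant in hippocampal neurons, read 10.88, 11.28 and 11.45 in exercise mice and 10.57, 10.70 and 11.03 in sedentary mice. Its difference was 0.48 ± 0.13 (adjusted p = 0.334), 5 of 6 runners lay above all sedentary mice, and it was called in all of the leave-outs, the 3 runners included (0.60). Wfs1, the endoplasmic reticulum membrane protein wolframin and a marker of CA1 pyramidal neurons, read 11.89, 12.04 and 12.20 in exercise mice and 11.27, 11.54 and 12.12 in sedentary mice (0.48 ± 0.12, adjusted p = 0.333). Here 1 sedentary mouse reached the level of the runners. Without exercise mice 12, 15 and 22 the Wfs1 difference was 0.50, which is not a call. Wfs1 was the 1 called gene among 8 CA1 markers, whose median was 0.09, and among 26 genes of the endoplasmic reticulum chaperone list, whose median was 0.03. Over all genes 1.2% were called, 0.721% of them higher and 0.481% lower. Bok, a BCL2-family protein and a CA3 marker, read 11.88, 12.06 and 12.36 in exercise mice and 11.48, 11.64 and 12.01 in sedentary mice (0.39 ± 0.09, adjusted p = 0.26). It was the 1 called gene of 13 CA2 and CA3 markers, whose median was 0.05, where 1.2% of all genes were called.

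Tesc, the calcium-binding protein tescalcin, had the smallest p of any probe and was named here after its value was seen. It read 9.82, 9.90 and 9.99 in exercise mice and 9.15, 9.44 and 9.66 in sedentary mice. The runners lay within a narrow band above all sedentary mice, with a difference of 0.49 ± 0.08 (adjusted p = 0.0574). Klhl40, a kelch-family protein best known for stabilizing the thin filaments of skeletal muscle, read 7.49, 7.68 and 8.02 in exercise mice and 6.90, 7.05 and 7.19 in sedentary mice. The groups were again apart, by 0.66 ± 0.12 (adjusted p = 0.0574). Nbl1, an extracellular antagonist of bone morphogenetic proteins, rose at both of its probes (0.38 and 0.43), with 11.24, 11.31 and 11.38 in exercise mice and 10.70, 10.93 and 11.09 in sedentary mice at the brighter one (0.38 ± 0.07, adjusted p = 0.080). Hsph1, a large heat shock protein that releases ADP from Hsp70, read 12.97, 13.09 and 13.13 in exercise mice and 12.59, 12.85 and 12.89 in sedentary mice. Again no sedentary mouse reached the lowest runner (0.27 ± 0.06, adjusted p = 0.192). These 4 genes were called with any 1 adult mouse left out and without exercise mice 12, 15 and 22. Hsph1 was the 1 called gene of 31 cytosolic chaperones, where 1.2% of all genes were called. Of the 31, 20 were positive, as were 49.6% of all genes, with a median of 0.07. Hsp90aa1 (0.23, adjusted p = 0.614) and Dnaja1 (0.28, adjusted p = 0.586), other chaperones of that list, were not called.

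Slc23a3, Avp, Otos and Olfm4 had low signals and were detected in more runners than sedentary mice. Much of their sedentary signal was thus not above background, so that the size of their differences is uncertain, and among adult mice they pass the detection filter mainly through the runners. Slc23a3, a member of the ascorbate transporter family, read 6.36, 6.67 and 6.96 in exercise mice and 5.23, 5.52 and 6.34 in sedentary mice (1.08 ± 0.20, adjusted p = 0.080). The groups did not overlap, and it was detected in all 6 runners and in 1 sedentary mouse. Avp, the precursor of the peptide hormone vasopressin, read 5.91, 6.93 and 7.72 in exercise mice and 5.49, 5.69 and 6.61 in sedentary mice (1.04 ± 0.27, adjusted p = 0.334), and was detected in 6 runners and 3 sedentary mice. 5 runners lay above all sedentary mice. Vasopressin is made by hypothalamic neurons. Of the other 7 measured hypothalamic markers none was called, where 1.2% of all genes were. The related peptide Oxt, oxytocin, differed by 0.01. The mean of the 8 markers, Avp included, was 6.74 to 7.85 in exercise mice and 6.65 to 7.55 in sedentary mice, highest in mouse 22 of the runners and mouse 23 of the sedentary group, and its part in the Avp difference was not tested. Otos, which encodes otospiralin, a protein known from the inner ear, read 5.51, 6.24 and 7.06 in exercise mice and 4.98, 5.31 and 5.73 in sedentary mice (0.96 ± 0.23, adjusted p = 0.244), with detection in 4 runners and 1 sedentary mouse. Olfm4, a secreted olfactomedin-domain glycoprotein, read 6.23, 6.36 and 6.74 in exercise mice and 5.43, 5.66 and 6.14 in sedentary mice (0.70 ± 0.16, adjusted p = 0.208). Its groups did not overlap, with detection in 6 runners and 3 sedentary mice. Tafa1, a small secreted protein of brain neurons, had brighter signals, 9.01, 9.17 and 9.37 in exercise mice and 8.02, 8.70 and 8.98 in sedentary mice (0.56 ± 0.14, adjusted p = 0.323), again without overlap. The receptor gene Mc4r, whose product binds melanocortins and in the hypothalamus limits feeding, read 7.34, 7.55 and 7.73 in exercise mice and 6.47, 6.94 and 7.56 in sedentary mice (0.56 ± 0.15, adjusted p = 0.371). The Mc4r call was lost without sedentary mouse 14 (0.46), and without exercise mice 12, 15 and 22 Tafa1 (0.55) and Mc4r (0.55) were not called. Slc23a3, Avp, Otos and Olfm4 were called in each of these fits, but they were chosen as large increases on these same mice, so this is no support.

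At the synapse, 2 of 34 vesicle and release genes were called, both higher, where 0.721% of all genes were, and the median of the list was -0.03. Syt12, an atypical synaptotagmin of synaptic vesicles, read 8.52, 8.67 and 8.78 in exercise mice and 8.15, 8.26 and 8.56 in sedentary mice (0.37 ± 0.09, adjusted p = 0.287). Sv2b, a vesicle glycoprotein, rose by 0.22 ± 0.07 (adjusted p = 0.431), but lost its call without exercise mouse 5, 10, 12, 13 or 22 or sedentary mouse 4, 6, 8 or 23 (between 0.19 and 0.28 with 1 adult mouse left out). None of 19 glutamate receptor genes (median -0.01) and none of 9 GABA receptor genes (median -0.01) was called. Among 24 neuropeptide and granin genes Avp alone was called.

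Immediate early genes moved in both directions. Of 27 measured, 2 were called higher and 2 lower, where 0.721% and 0.481% of all genes were, 17 were negative, as were 50.4% of all genes, and the list had a median of -0.10. Dusp1, a phosphatase that switches off MAP kinases, read 9.44, 9.93 and 10.22 in exercise mice and 10.32, 10.79 and 11.23 in sedentary mice. Every runner lay below every sedentary mouse (-0.84 ± 0.18, adjusted p = 0.200), and the call stood with any 1 adult mouse left out and without exercise mice 12, 15 and 22 (-0.92). Fos, a subunit of the AP-1 transcription factor, read 8.01, 8.55 and 9.02 in exercise mice and 8.61, 9.53 and 10.01 in sedentary mice (-0.83 ± 0.26, adjusted p = 0.428). 5 runners lay below all sedentary mice. The Fos call was lost without exercise mouse 5, 10, 12, 15 or 22 or sedentary mouse 4, 6, 8 or 21 (between -0.70 and -0.98 with 1 adult mouse left out), and without exercise mice 12, 15 and 22 (-0.84). Arc, a synaptic protein of memory storage, read 9.42, 10.00 and 10.11 in exercise mice and 9.69, 10.81 and 11.50 in sedentary mice. All 6 runners were close together, while the sedentary mice spread widely, 2 of them among the runners, and the difference of -0.75 ± 0.29 was not called (adjusted p = 0.542). Junb, another AP-1 subunit (-0.49, adjusted p = 0.528), and Npas4, an activity-dependent transcription factor of neurons (-0.55, adjusted p = 0.637), were likewise not called. Leaving out sedentary mouse 14 made Arc (-0.93) and Junb (-0.59) calls, as leaving out sedentary mouse 23 did Junb (-0.60). Arc, Junb and Npas4 were named after their values were seen.

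Plk2 and Egr3, also genes of the activity response, were the 2 called higher. Plk2, a kinase that remodels dendritic spines, read 11.33, 11.50 and 11.64 in exercise mice and 11.02, 11.15 and 11.31 in sedentary mice, with no overlap (0.33 ± 0.07, adjusted p = 0.2). The zinc finger transcription factor Egr3 read 11.62, 11.83 and 11.97 in exercise mice and 11.28, 11.53 and 11.80 in sedentary mice (0.26 ± 0.07, adjusted p = 0.375). Its call was lost without exercise mouse 5 or sedentary mouse 8 (between 0.21 and 0.31 with 1 adult mouse left out) and without exercise mice 12, 15 and 22 (0.22). Egr1, its close relative, differed by -0.04, with 12.78, 13.24 and 13.47 in exercise mice and 12.79, 13.19 and 13.52 in sedentary mice, and its sign turned when single mice were left out (-0.12 to 0.04). Fosb (0.05), Homer1 (0.16) and Nptx2 (0.43, adjusted p = 0.621) were not called. The called members thus lay in both directions.

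Promoters of 4 such genes are shown because the genes differ in direction while they share the letters to which the transcription factor CREB is known to bind. The windows run from 250 bases before to 50 after a transcription start in RefSeq (build GRCm38.p6), are written 5′ to 3′ on the gene's strand, and carry in capitals each TGACG on either strand, the core of the cyclic AMP response element TGACGTCA. Dusp1 lies at chr17:26508423-26508722 (minus strand), Fos at chr12:85473640-85473939 (plus strand) and Plk2 at chr13:110394794-110395093 (plus strand). Of 7 starts listed for Bdnf the 1 with a match is shown, at chr2:109692186-109692485 (plus strand).
Dusp1: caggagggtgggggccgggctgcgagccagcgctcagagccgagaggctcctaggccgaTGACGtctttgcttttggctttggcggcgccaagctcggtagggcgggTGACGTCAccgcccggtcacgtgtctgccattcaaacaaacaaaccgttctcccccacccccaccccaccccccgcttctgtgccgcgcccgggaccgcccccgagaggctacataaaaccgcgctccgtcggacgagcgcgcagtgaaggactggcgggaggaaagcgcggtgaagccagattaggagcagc
Fos: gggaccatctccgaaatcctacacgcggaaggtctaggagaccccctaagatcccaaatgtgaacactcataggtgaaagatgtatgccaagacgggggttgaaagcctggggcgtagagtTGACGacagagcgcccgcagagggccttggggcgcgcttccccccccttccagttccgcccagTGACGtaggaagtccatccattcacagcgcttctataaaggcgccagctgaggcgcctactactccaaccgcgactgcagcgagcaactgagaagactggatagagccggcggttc
Plk2: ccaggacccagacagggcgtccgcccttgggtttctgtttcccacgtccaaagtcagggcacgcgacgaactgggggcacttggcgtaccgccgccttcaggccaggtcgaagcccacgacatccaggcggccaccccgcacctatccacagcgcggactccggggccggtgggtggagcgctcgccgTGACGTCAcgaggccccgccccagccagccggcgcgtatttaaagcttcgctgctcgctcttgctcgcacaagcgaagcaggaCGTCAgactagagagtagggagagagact
Bdnf: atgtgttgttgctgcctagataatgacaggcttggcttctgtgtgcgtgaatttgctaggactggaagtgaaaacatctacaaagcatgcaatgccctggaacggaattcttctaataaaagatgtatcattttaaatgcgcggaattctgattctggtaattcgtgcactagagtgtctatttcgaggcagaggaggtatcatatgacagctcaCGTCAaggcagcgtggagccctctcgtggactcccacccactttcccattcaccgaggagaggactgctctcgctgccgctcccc
Dusp1 and Plk2, called in opposite directions, each hold 1 complete TGACGTCA, and Fos and Bdnf hold TGACG alone. The complete element reads the same on both strands and so holds TGACG on each. TGACG occurs in 20.8% of all 32851 windows of the table, counting either strand, and in 30.1% of the 11369 windows of genes with a kept probe. The complete element occurs in 1.79% and 3.02% of them. TGACG was found in 30 of 113 windows of genes called higher (26.5%) and 19 of 68 windows of genes called lower (27.9%), and the complete element in 6 (5.31%) and 4 (5.88%) of them. The letters do not show that a factor was bound.
The window of Hsph1 at chr5:149636287-149636586 (minus strand) is given for another motif, TTCNNGAA on either strand (the same letters on both), a pair of the units to which heat shock factors bind, here in capitals.
Hsph1: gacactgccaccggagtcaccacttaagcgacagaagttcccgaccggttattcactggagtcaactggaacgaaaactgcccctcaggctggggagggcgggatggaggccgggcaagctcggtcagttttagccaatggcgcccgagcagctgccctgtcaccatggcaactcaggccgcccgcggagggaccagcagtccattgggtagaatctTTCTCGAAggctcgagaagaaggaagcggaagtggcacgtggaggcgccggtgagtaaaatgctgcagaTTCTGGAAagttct
It occurs 2 times in this window, and in 8.52% of all windows and 6.39% of those of genes with a kept probe.

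Echdc2, a mitochondrial protein of the enoyl-CoA hydratase family, read 9.11, 9.18 and 9.25 in exercise mice and 9.52, 9.75 and 9.82 in sedentary mice. It had the smallest p of the decreases (-0.52 ± 0.09, adjusted p = 0.0574), and 2 of its 3 probes were called. Tmem114, a membrane protein of the claudin superfamily, read 9.22, 9.42 and 9.61 in exercise mice and 9.82, 10.04 and 10.28 in sedentary mice (-0.64 ± 0.14, adjusted p = 0.2). Both held in every leave-out and without exercise mice 12, 15 and 22 (-0.58 and -0.61). Upp1, uridine phosphorylase, was lower at each of 3 probes (-0.79 to -0.41, 2 of them called). The called probe at -0.79 was dim, 5.47 to 5.84 in exercise mice and 5.88 to 6.73 in sedentary mice. It was detected in 7 of the 12 adult mice, so the size of its difference is uncertain. Its brightest probe read 7.60, 7.87 and 8.07 in exercise mice and 8.07, 8.40 and 8.53 in sedentary mice (-0.52 ± 0.11, adjusted p = 0.2). Pdk4, the kinase that shuts pyruvate dehydrogenase during fasting, read 7.12, 7.27 and 7.50 in exercise mice and 7.54, 7.71 and 7.87 in sedentary mice (-0.42 ± 0.11, adjusted p = 0.323). No runner reached the lowest sedentary mouse. Cd83, an immunoglobulin-family protein of activated immune cells, read 7.66, 7.96 and 8.24 in exercise mice and 8.15, 8.40 and 9.16 in sedentary mice (-0.55 ± 0.14, adjusted p = 0.323). Without exercise mice 12, 15 and 22 Upp1 (-0.43), Pdk4 (-0.37) and Cd83 (-0.40) kept their sign but were not called.

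Calls in pathways of fuel use are to be read against the 1.2% of all genes called, so few are due in lists of this size. None of 67 oxidative phosphorylation genes was called, and their median was 0.00 with a range of -0.09 to 0.31. Pdk4 was the 1 called gene of 21 glycolysis and lactate genes, whose median was 0.02. Among 18 regulators of mitochondrial biogenesis and fat burning 14 were negative, as were 50.4% of all genes, and none was called. Ppargc1a, the coactivator that drives mitochondrial biogenesis, read 9.31, 9.53 and 9.83 in exercise mice and 9.61, 9.79 and 10.20 in sedentary mice (-0.26 ± 0.10, adjusted p = 0.528), and was called without exercise mouse 22 (-0.31) and without exercise mice 12, 15 and 22 (-0.41). Its relative Ppargc1b differed by -0.28 ± 0.09 (adjusted p = 0.492), and was called without exercise mouse 12 or sedentary mouse 21 or 23 (-0.31 to -0.32).

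Pdk4 and Dusp1 are also the 2 called members, both lower, of 23 genes known to be induced by glucocorticoids. Of all genes 0.481% were called lower. The rest of that list did not pass: its best-known members Fkbp5 (0.25, adjusted p = 0.655), Sgk1 (0.16) and Tsc22d3 (-0.08) lay on both sides of 0, and its median was -0.08.

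The Wnt pathway had 1 called gene in each direction among 28 measured, where 0.721% of all genes were called higher and 0.481% lower. Wnt2, a secreted ligand, read 8.48, 9.03 and 9.46 in exercise mice and 8.32, 8.43 and 8.61 in sedentary mice (0.62 ± 0.14, adjusted p = 0.244). 5 runners lay above all sedentary mice, and the call held in each leave-out and without exercise mice 12, 15 and 22 (0.72). Axin2, an inhibitor of beta-catenin that is itself a target of the pathway, read 8.35, 8.60 and 8.68 in exercise mice and 8.62, 8.93 and 9.02 in sedentary mice (-0.33 ± 0.10, adjusted p = 0.41). Its call was lost without exercise mouse 5 or 15 or sedentary mouse 4, 6, 8, 21 or 23 (between -0.29 and -0.38 with 1 adult mouse left out), and without exercise mice 12, 15 and 22 (-0.32). The other 26 of 28 measured members, ligands, Frizzled receptors and transducers alike, were not called, and the median was -0.05. Ctnnb1, beta-catenin itself, differed by 0.05.

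Genes of newborn neurons were more often negative than all genes, by small differences. Of 23, Tubb2b, a beta-tubulin of growing neurons, was called higher, where 0.721% of all genes were. Of the list 17 were negative, as were 50.4% of all genes, with a median of -0.04. The mean level of the list was 9.22 to 9.36 in exercise mice and 9.26 to 9.37 in sedentary mice. Tubb2b read 13.86, 14.09 and 14.18 in exercise mice and 13.76, 13.81 and 13.93 in sedentary mice (0.22 ± 0.06, adjusted p = 0.376). It was not called without exercise mouse 22 (0.20) or without exercise mice 12, 15 and 22 (0.23). Dcx, doublecortin, the usual marker of newborn granule neurons, differed by -0.12 (adjusted p = 0.866), and Neurod1 by -0.19 (adjusted p = 0.814). None of 18 mitotic genes was called (median 0.07). Ccnd1, cyclin D1, read 10.78, 10.98 and 11.00 in exercise mice and 10.56, 10.78 and 10.85 in sedentary mice and was not called (0.19 ± 0.07, adjusted p = 0.512). It was called without exercise mouse 15 (0.22) and with array weights (0.20).

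Replication-dependent histone genes, whose RNAs mostly lack the poly(A) tail from which these samples were primed, were positive in 32 of 37, with a median of 0.10, while 49.6% of all genes were positive. None was called. The highest were H2bc4, with 11.06, 11.36 and 11.61 in exercise mice and 10.75, 11.11 and 11.30 in sedentary mice (0.27 ± 0.11, adjusted p = 0.561), and H4c9 (0.27 ± 0.11, adjusted p = 0.562). The mean level of the list was 8.94 to 9.28 in exercise mice and 8.88 to 9.11 in sedentary mice. Runners 12 and 22 were at 8.94 and the other 4 runners at 9.08 or above. Histone genes are near-identical within families, so their probes may read several copies. Of 36 chromatin remodeler genes 24 were negative and none was called (median -0.04). Of 30 splicing kinase and RNA-binding genes Clk1, a kinase of splicing factors, was called lower (median -0.08). Over all genes 50.4% were negative and 0.481% were called lower. Clk1 read 10.24, 10.49 and 10.52 in exercise mice and 10.41, 10.76 and 10.97 in sedentary mice (-0.28 ± 0.08, adjusted p = 0.41), and lost its call without exercise mouse 5 or 12 or sedentary mouse 6, 8 or 21 (between -0.23 and -0.34 with 1 adult mouse left out) and without exercise mice 12, 15 and 22 (-0.30).

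Most MHC class I, complement and interferon response genes were negative. Over all genes 1.2% were called, 0.721% higher and 0.481% lower. Of 14 genes of MHC class I antigen presentation 13 were negative, as were 50.4% of all genes (median of the list -0.18), and none was called. H2-D1, a class I heavy chain, read 8.92, 9.17 and 9.33 in exercise mice and 9.06, 9.36 and 9.99 in sedentary mice (-0.30 ± 0.16, adjusted p = 0.659), and its light chain B2m differed by -0.11 (adjusted p = 0.862). The mean level of the list was 8.59 in sedentary mouse 21, against 8.19 or less in the other 11 adult mice. Of 10 complement genes 9 were negative (median -0.17), and Cfp, properdin, which stabilizes the alternative pathway convertase, was called lower (-0.23 ± 0.07, adjusted p = 0.416). The Cfp call was lost without exercise mouse 5, 10, 12 or 13 or sedentary mouse 6, 14, 21 or 23 (between -0.20 and -0.27 with 1 adult mouse left out). C4b differed by -0.16 (adjusted p = 0.712). Without exercise mice 12, 15 and 22 the complement median was -0.03 and that of MHC class I -0.13. Irgm1, an interferon-induced GTPase, was the 1 called gene of 17 interferon response genes and was higher, at 13.60, 13.82 and 13.88 in exercise mice and 13.22, 13.53 and 13.67 in sedentary mice (0.27 ± 0.08, adjusted p = 0.371), whereas 13 of the 17 were negative. The mean level of that list was 8.17 in sedentary mouse 21 and 7.97 in sedentary mouse 4. The other sedentary mice, at 7.75 to 7.81, lay within the range of the runners, 7.64 to 7.90. Microglia (median 0.01), astrocyte (-0.07), oligodendrocyte (-0.07), oligodendrocyte precursor (0.06) and endothelial markers (-0.03) held no called gene.

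Clock genes were negative in 15 of 18, as were 50.4% of all genes, with a median of -0.08. None was called, where 1.2% of all genes were. Arntl, which encodes the activator BMAL1, read 9.37, 9.64 and 10.13 in exercise mice and 9.10, 9.38 and 9.60 in sedentary mice (0.32 ± 0.11, adjusted p = 0.498). Ciart, a repressor of the clock, read 7.68, 8.50 and 8.83 in exercise mice and 8.50, 8.91 and 9.07 in sedentary mice (-0.51 ± 0.19, adjusted p = 0.528), Dbp, a transcription factor of clock output, differed by -0.26 (adjusted p = 0.575) and the period gene Per3 by -0.30 (adjusted p = 0.541). Arntl and Ciart were both called without exercise mice 12, 15 and 22 (0.50 and -0.84). Of single mice, leaving out exercise mouse 22 or sedentary mouse 4 made Arntl a call (0.38 and 0.36) and leaving out exercise mouse 15 made Ciart one (-0.61).

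**Figure D3:**
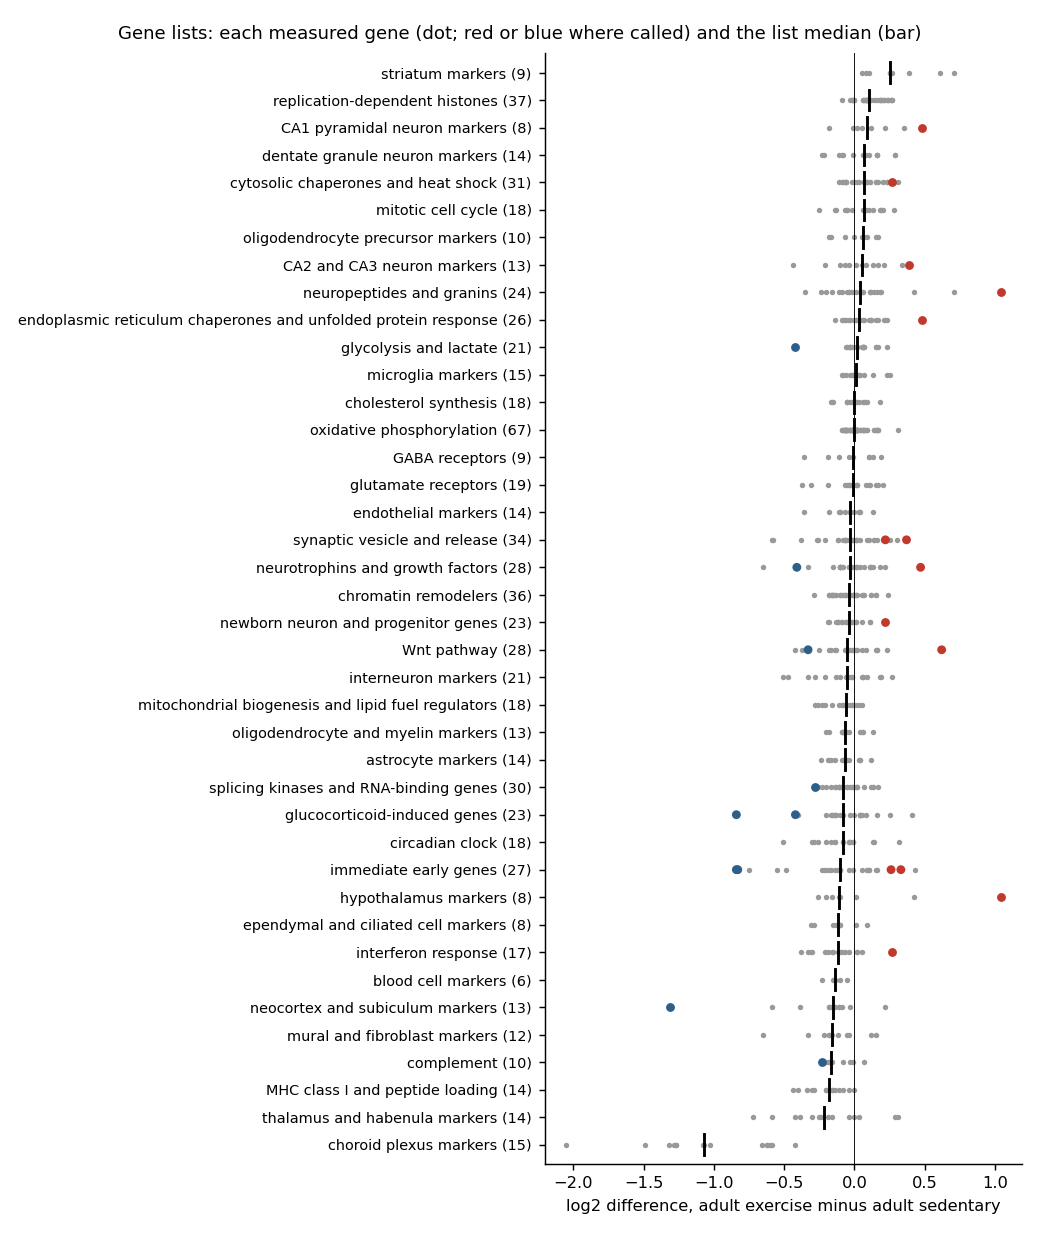
Each dot is a measured gene of the named list (number in brackets) at its log2 difference between adult exercise and adult sedentary mice, red or blue where it was called higher or lower, and the bar is the list median. Medians lay within 0.25 of 0 on either side except that of the choroid plexus markers at -1.07. Called genes were few in every list, where 1.2% of all genes were called.

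Markers of neighbouring tissue varied between mice. All 15 choroid plexus markers were negative, as were 50.4% of all genes, with a median of -1.07. None was called, where 1.2% of all genes were. Ttr, transthyretin, the main secreted protein of that tissue, read 10.30, 13.89 and 15.62 in exercise mice and 15.00, 15.57 and 15.70 in sedentary mice (-2.05 ± 0.95, adjusted p = 0.618). Without runners 12, 15 and 22 it differed by 0.15 and the median of the list was 0.48, so the sign turned. Striatum markers were positive in 9 of 9, as were 49.6% of all genes, with a median of 0.25 and no call. Drd1, a dopamine receptor of striatal neurons, read 7.57, 8.02 and 8.41 in exercise mice and 7.14, 7.43 and 7.56 in sedentary mice, without overlap (0.61 ± 0.26, adjusted p = 0.573), and Penk, proenkephalin, differed by 0.71 ± 0.28 (adjusted p = 0.544). The mean of the list was 7.93 to 8.78 in exercise mice and 7.74 to 8.13 in sedentary mice, with runner 13 the highest. Thalamus and habenula markers spread widely in both groups, 7.06 to 8.99 in exercise mice and 7.08 to 9.53 in sedentary mice. Of these tissues only the choroid plexus was followed further, with its marker level as a term and without runners 12, 15 and 22. The part of the other tissues in the genes above was not tested. With the term 290 probes were called, and 160 of the 221 calls were kept. Of the genes described here that lost their call without the 3 runners, Sorcs3, Mc4r, Egr3 and Clk1 lost it with the term also. The others, Wfs1, Igfbp5, Tafa1, Fos, Upp1, Pdk4, Cd83, Axin2, Tubb2b and Sec22a, were called with the term. The fit without the 3 runners, with 3 fewer mice, retained 99 of the 221 calls and called 221 probes, 109 of them higher and 112 lower. All 221 signs were kept, but the probes had been chosen on a fit that held the remaining mice.

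**Figure D4:**
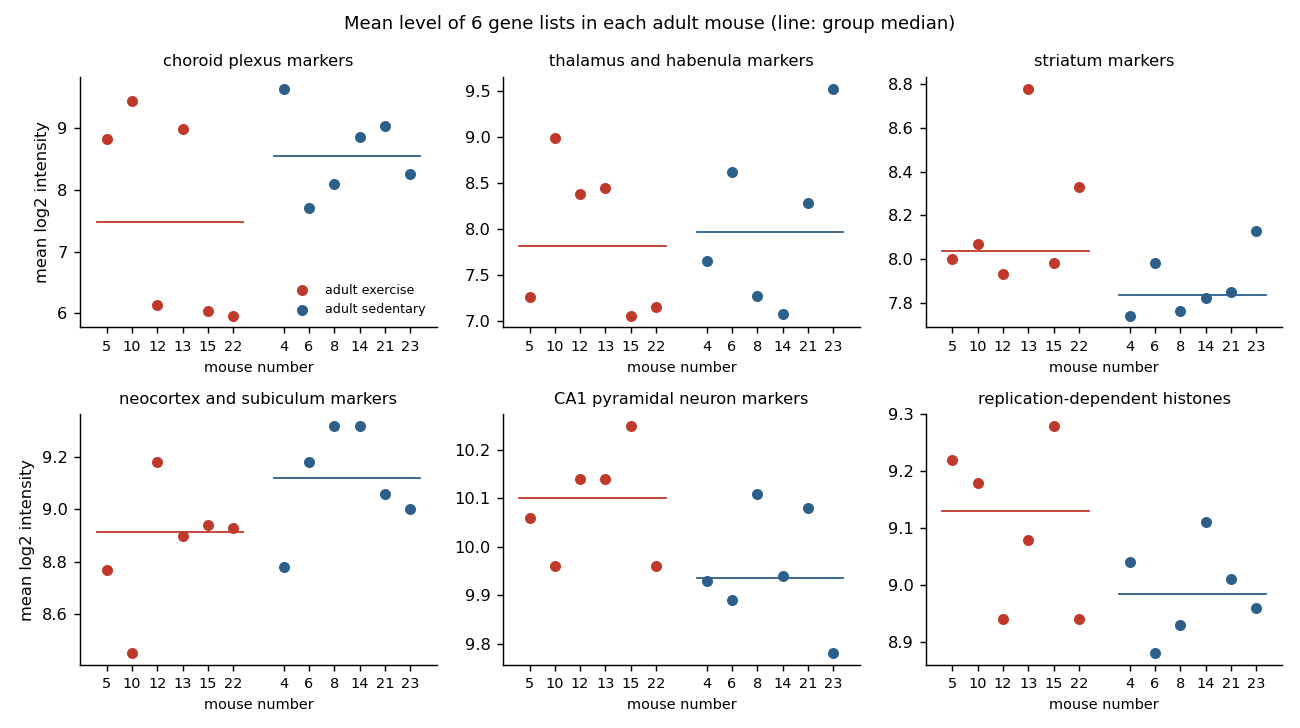
Mean log2 intensity of 6 gene lists in each adult mouse, with exercise mice left and sedentary mice right and the line at the group median. Choroid plexus markers were at about 6 in runners 12, 15 and 22 and at 7.70 or above in every other adult mouse, striatum markers were highest in runner 13, and thalamus markers were high in some mice of both groups.

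Tshz2 and Cbln1 were called lower and varied strongly from mouse to mouse. Tshz2, a zinc finger transcription factor of retrosplenial and subicular cortex, read 6.05, 7.86 and 8.66 in exercise mice and 8.21, 8.59 and 9.96 in sedentary mice (-1.31 ± 0.39, adjusted p = 0.41). Only 3 runners lay below all sedentary mice. Of its 3 probes 2 were called. Cbln1, a secreted organizer of synapses that is abundant in thalamus and cerebellum, read 8.10, 8.73 and 9.34 in exercise mice and 8.90, 9.64 and 10.26 in sedentary mice (-0.87 ± 0.25, adjusted p = 0.401). Each lost its call without exercise mouse 10, 13 or 22 or sedentary mouse 8, and also without sedentary mouse 14 for Tshz2 (between -0.999 and -1.52 with 1 adult mouse left out) and sedentary mouse 23 for Cbln1 (between -0.74 and -1.02 with 1 adult mouse left out). Neocortex and subiculum markers were negative in 12 of 13, as were 50.4% of all genes (median of the list -0.15). The mean of these markers was 8.45 to 9.18 in exercise mice and 8.78 to 9.32 in sedentary mice. Tshz2 was the 1 called gene among them, where 0.481% of all genes were called lower. Nos1, neuronal nitric oxide synthase of interneurons, read 7.12, 7.51 and 8.46 in exercise mice and 7.82, 8.05 and 8.29 in sedentary mice. The runner at 8.46, mouse 22, was above all 6 sedentary mice and the other 5 runners were below all of them, and Nos1 was not called over 6 runners (-0.47 ± 0.16, adjusted p = 0.507) but was called without mouse 22 (-0.64).

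In aged mice the called differences mostly had the same sign and were smaller. Of the 221 probes called in adult mice 190 had the same sign in aged exercise against aged sedentary mice (86%), as did 61.2% of all probes. The median difference of the probes called higher was 0.328 in adult mice and 0.137 in aged mice, and that of the probes called lower -0.375 and -0.127. The probes were chosen on the adult difference, so smaller differences in other mice are due from the choice itself. These medians are a description and do not show a weaker response in aged mice. In aged mice 85 probes were called (0.429%), and 11 were called at both ages, all 11 with the same sign. Among them were Bdnf (0.41 in aged mice), Wfs1 (0.70), Wnt2 (0.77), Klk8 (0.59), Hsph1 (0.25) and Tmem114 (-0.59). Avp (0.78) and Pdk4 (-0.39) had aged differences close to the adult ones without a call.

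The difference between the ages was itself tested as an interaction, adult running difference minus aged running difference. It was called for 26 of 19806 probes (0.131%), 13 in each direction, with 99.03 expected by chance, 0 at an adjusted p under 0.05 and 387 (1.95%) at an unadjusted p under 0.05 in limma. Leaving out mouse 5, 10 or 6 of the adult groups or runner 11 of the aged group lowered the count to 16 or 17, and leaving out mouse 7 of the aged sedentary group raised it to 75. Of the 221 adult calls 10 were among the 26. Tshz2 (-1.31 in adult mice, 0.83 in aged mice) and Cbln1 (-0.87 in adult mice, 0.60 in aged mice) were among the 26 and had opposite signs at the ages. So had Nrep, a neuronal regeneration-related protein (-0.46 in adult mice, 0.34 in aged mice), and Sec22a, a protein of vesicle transport (0.28 in adult mice, -0.21 in aged mice). The adult calls of Nrep (lost without adult runner 10, 13 or 22 or sedentary mouse 6, 8 or 14, between -0.39 and -0.54 with 1 adult mouse left out) and Sec22a (lost without adult runner 10 or 22 or sedentary mouse 8, between 0.25 and 0.31 with 1 adult mouse left out) hung on single mice. Without adult exercise mice 12, 15 and 22 the Sec22a difference was 0.25, which is not a call. Klhl40 differed by 0.66 in adult mice and 0.07 in aged mice, a called interaction. For Dusp1 (-0.84 in adult mice, -0.27 in aged mice) and Fos (-0.83 in adult mice, -0.02 in aged mice) the interaction was not called, so that a difference between the ages was not shown. The replication-dependent histone list was positive in 33 of 37 genes in aged mice (median 0.20), and the choroid plexus list negative in 15 of 15 (median -0.60).

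**Figure D5:**
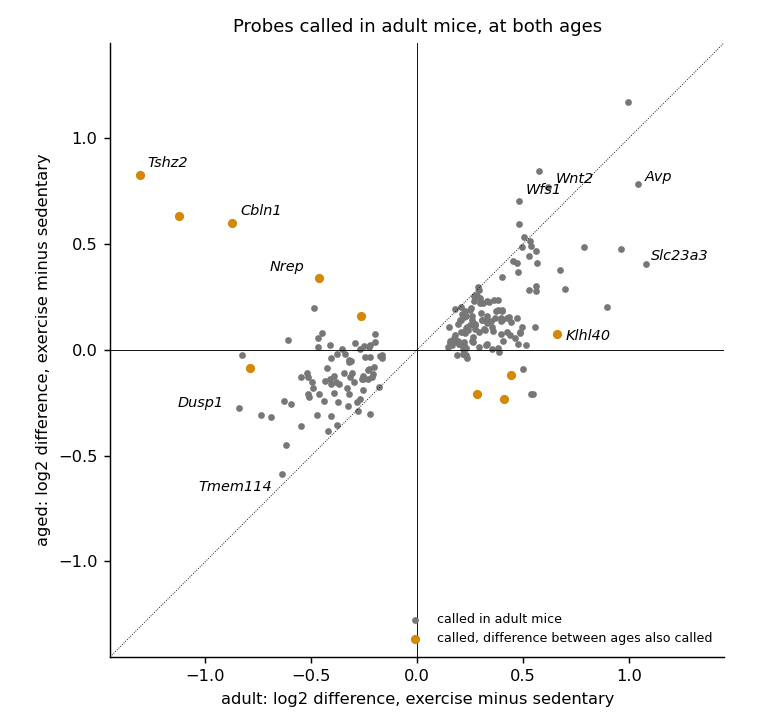
Each point is 1 of the 221 probes called in adult mice, with its log2 difference (exercise minus sedentary) in adult mice on the horizontal axis and in aged mice on the vertical axis. Of the points 190 lie in the quadrants of equal sign, the dotted line marks equal differences at both ages, and the 10 orange points are those whose difference between the ages was also called, among them Tshz2 and Cbln1.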

How the data were processed

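Hippocampal RNA of the 20 mice (male, BALB/c) was hybridized to 24 Illumina arrays, and the groups came from the sample labels. The deposited intensity values are bead summaries per probe from GenomeStudio, not normalized by the authors, and each deposited detection p-value gives how far a probe stood above the negative controls of its array. A second deposited table holds log2 values that the authors background-corrected, variance-stabilized and quantile-normalized in lumi, and it was used as an alternative only.

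The intensities were background-corrected, quantile-normalized and log2-transformed with neqc of limma 3.58.1 (R 4.3.3) with an offset of 16, which pulls the differences of dim probes toward 0. A technical repeat and the other array of that mouse entered as their mean. Probes were kept where detected (p under 0.01) in at least 4 of the 20 mice. Means of the 4 groups were fitted over the 20 mice with lmFit and eBayes with a trend (16 residual and 5.69 prior degrees of freedom), and a probe was called at p under 0.005, with Benjamini-Hochberg adjusted values beside it. A gene was read from its brightest kept probe, and symbols were updated through Entrez identifiers to RefSeq (GRCm38.p6). Of the kept probes 16978 had 1 symbol, 7 several and 2821 none. Chip identity was not given in the sources used here, and no chip term was fitted. Simulated data had the same group sizes and independent normal noise at the residual spread of each probe. In them 49 of 100 planted differences of 0.3 and 89 of 100 of 0.6 were called, against 0.479% of 19606 unchanged probes. Such noise leaves out variation shared between probes, as of choroid plexus RNA. These shares check the fit and do not estimate the false calls in these mice.

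The members, the gene lists and the tests were chosen with earlier results of these data known. Named genes were the 15 largest called increases and decreases, up to 4 called members of each list (the 2 largest differences where none was called), the 5 smallest interaction p-values in each direction, and genes that the study or an earlier account of these mice singled out, which are not independent evidence. Not every gene that this rule names is described. Tesc, Arc, Junb, Npas4, Egr1, and the uncalled receptors, chaperones, clock, Wnt, glucocorticoid-induced and newborn-neuron genes named with a difference alone were chosen after their values were seen. Figures were drawn with Python 3.11.15 and matplotlib 3.10.9.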

Additional observations from a re-analysis of the deposited data

Results flagged for a closer look

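Of 124 values of a gene in an adult group and 80 mean levels of a list in an adult group, 6 and 3 held a mouse whose gap to the nearest of the others was large against the range of its group, where chance gives about 1 in 20. In exercise mouse 22 the levels were 9.15 for Moxd1 (nearest runner 8.70), 8.46 for Nos1 (nearest 7.60) and 11.14 for B2m (nearest 11.40). In sedentary mouse 8 Hsph1 was at 12.59 (nearest sedentary mouse 12.79), Igfbp5 at 11.82 (nearest 12.38) and the mean of the glycolysis and lactate list at 11.70 (nearest 11.52). Sedentary mouse 14 had Axin2 at 8.62 (nearest 8.90), sedentary mouse 4 had a cytosolic chaperone list mean of 9.51 (nearest 9.42), and sedentary mouse 21 had an MHC class I list mean of 8.59 (nearest 8.19).

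The running difference in adult mice minus that in aged mice was called for 7 named genes at an unadjusted p under 0.005. It was 0.59 for Klhl40, -2.14 for Tshz2, -1.47 for Cbln1, -0.80 for Nrep and 0.49 for Sec22a. It was also 0.62 for Islr2, an axonal membrane protein (0.14 in adult mice, -0.48 in aged mice), and 0.66 for St3gal4, a sialyltransferase (0.27 in adult mice, -0.39 in aged mice). None of the 7 passed the adjustment over all probes. All but Klhl40 are among the genes named for the smallest interaction p-values, so their calls followed from that choice. Of all 19806 probes 26 were called in this test (0.131%), where 99.03 would be called by chance alone.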

How the results depend on the processing

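The 221 running calls numbered between 143 (without adult sedentary mouse 6) and 328 (without adult sedentary mouse 8) when 1 adult mouse was left out, and the 26 interaction calls between 16 and 75 when 1 mouse was left out. Array weights gave 708 and 41 calls, no detection filter 101 interaction calls, and an adjusted p under 0.05 gave 0 and 0. Other alternatives over probes gave 154 to 290 running calls, or 321 without the detection filter, and the mean over the kept probes of each gene gave 141 calls among 10814 genes. Of the running calls 53.2% were higher after median scaling, 50% with choroid plexus marker level as a term (160 of 221 calls kept) and 49.3% without adult exercise mice 12, 15 and 22, a fit added after the data were seen, against 62% in the reported fit. Signs turned for Gpx8 (-0.21 in the reported fit, 0.073 with the choroid plexus term and 0.078 without the 3 runners), for Ttr (0.15) and Clic6 (0.696) without the 3 runners, and for Egr1 when 1 mouse was left out (range -0.12 to 0.039, with 0.011, 0.039, 0.018 and 0.026 without exercise mice 5 and 10 and sedentary mice 6 and 21). Over named genes, 800 values under other alternatives kept their direction and side of the threshold, 43 were no longer called and 17 became calls. No paired analysis was possible because mouse numbers are not shared between groups. Depth limits the values of Slc23a3, Avp, Otos and Olfm4, which were not detected in every sedentary mouse. It also limits a dim called probe of Bdnf and one of Upp1, detected in 4 and 7 of the 12 adult mice.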
